A study of Homo sapiens with 9 samples.

Results

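The genes of the proteasome subunits were followed in A431 cells with and without mutant p53. The members were the genes whose symbol in the deposited table is PSMA, PSMB, PSMC, PSMD or PSME followed by a number, and 43 of the 58051 genes in the table met this rule. Of these, 41 held enough counts to be tested, among 14513 tested genes. The remaining pair, PSMA8, an alpha subunit of the testis, and PSMB11, the catalytic subunit of the thymus proteasome, had 0 counts in all 9 libraries, where 3 counts was taken as the limit of detection.

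A431 is an epidermoid carcinoma line with endogenous mutant p53, and all 3 groups derive from it. A431 parental (mutp53) cells were unmodified, Ctrl (mutp53) cells had been made with a CRISPR construct without a guide against p53, and p53 KO cells with one directed at p53. The labels state that cells were grown as single colonies, so a group may stand for very few founder cells, and that they were harvested 48 h after settling in medium with serum. Poly(A) RNA was sequenced in 3 libraries per group. Nothing in the labels says that replicates came from separate cultures, so the p-values measure the spread between these libraries, which may be technical.

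The proteasome degrades proteins that carry ubiquitin. Its core, the 20S particle, is a barrel of alpha and beta rings whose catalytic sites lie on PSMB5, PSMB6 and PSMB7, and in the immunoproteasome these are replaced by PSMB8, PSMB9 and PSMB10, which favour peptides suited to MHC class I molecules and are induced by interferon gamma. The 19S particle, with a base that holds the PSMC ATPases and a lid that removes ubiquitin, unfolds substrates and feeds them in, and the PSME proteins are alternative activators of the core.

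Library totals ranged from 19783778 to 29840452 counts, and a level is given as CPM, counts scaled by TMM to a library of 1000000. Of 10 markers of squamous epithelium, 9 held at least 200 counts in every library and KRT14 held 0 to 13. Of 10 markers of fibroblasts, endothelium and blood cells, 9 held at most 13 counts in any library and COL1A1 held 47 to 114. The replicates of the Ctrl group were the least alike. Among genes with merged exons of up to 2 kb, the median difference from the group mean in log2 CPM was 0.226 in Ctrl replicate 1, 0.119 in p53 KO replicate 3 and -0.136 in Ctrl replicate 3, and among genes over 7 kb it was -0.149, -0.0691 and 0.0997. In bulk RNA, a change in every cell and a change in a fraction of the cells cannot be told apart.

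The sequences upstream of the inducible members are shown because these genes include the members that differed most. The 250 bases before the RefSeq start of PSMB9 (GRCh38.p14, chr6:32853942-32854191, plus strand), which it shares with the divergent transporter gene TAP1, hold a CCAAT box and a reverse-strand match to TGACNNNGC, the letters of the element bound by the NFE2L factors, both in capitals.
PSMB9: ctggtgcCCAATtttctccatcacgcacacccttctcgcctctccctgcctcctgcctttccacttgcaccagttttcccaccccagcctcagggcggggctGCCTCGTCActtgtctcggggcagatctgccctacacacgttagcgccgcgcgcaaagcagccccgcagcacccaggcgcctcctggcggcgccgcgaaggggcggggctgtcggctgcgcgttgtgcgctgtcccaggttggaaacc

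RefSeq windows from 250 bases before to 50 after a start were found for 38 of the 43 members, in 45 windows, and PSMA7, PSMB1, PSMB6, PSMB7 and PSMD4 had none. The core of the interferon-stimulated response element, GAAA, any 2 bases and GAAA, was present in 6 of these 38 (15.8%), compared with 4.38% of the 27305 gene symbols with a window. The 30 bases around each match, with the match in capitals, are shown on the strand of the gene.
PSMB8 (chr6:32844032-32844061, minus strand): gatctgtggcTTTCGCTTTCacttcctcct
PSMB10 (chr16:67936852-67936881, minus strand): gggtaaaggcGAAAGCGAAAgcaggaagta
PSME1 (chr14:24136189-24136218, plus strand): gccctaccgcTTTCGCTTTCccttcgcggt
PSME2 (chr14:24146619-24146648, minus strand): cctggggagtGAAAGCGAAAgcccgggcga
PSMB4 (chr1:151399495-151399524, plus strand): tcgtctacagGAAAAAGAAAgaaatgacac
PSMA4 (chr15:78540155-78540184, plus strand): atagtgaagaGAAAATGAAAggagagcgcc
In PSMB8 and PSME1 the match reads on the reverse strand. The immunoproteasome genes PSMB8 and PSMB10 and the interferon-inducible activator genes PSME1 and PSME2 shared the same letters between the GAAA blocks, or their complement. No match lay in the PSMB9 window.

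Other motifs were counted in the same windows on both strands. TGACNNNGC was found in 13 of 38 members (34.2%) and in 16.1% of all gene symbols, CCAAT in 19 (50%) and 39.7%, and TTCNNNGAA, the letters of the gamma-activated site, in 8 (21.1%) and 9.38%. The CCAAT letters were present upstream of PSMC2, and those of the gamma-activated site in the windows of PSMD2 and PSMB8. These are matches of letters, and binding was not measured.

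The levels of the proteasome subunit genes ranged widely. Compared per length, as CPM per kb of merged GENCODE 44 exons averaged over the 9 libraries, the median of the 41 members was 38.67, with quartiles of 19.76 and 72.19. Merged exons join those of all annotated transcripts of a gene. They can be longer than the transcript expressed, which lowers the level per length. They came to 7479 bases for PSMC6 and 9056 for PSMD6, but 1168 for PSMB3, so the order of members also depends on the annotation. PSMD2, the scaffold of the 19S base, was highest, with 226 ± 7.11 CPM per kb (SD, n = 3) in parental cells, 239 ± 10.8 in Ctrl cells and 188 ± 4.72 after loss of p53. The constitutive beta subunits PSMB3, PSMB1, PSMB7, PSMB6, PSMB2 and PSMB4 followed close together at 111.8 to 91.23 with PSMA7 at 119.9 and the ATPase PSMC3 at 111.0, and these neighbours overlapped between libraries. The immunoproteasome subunits were lower, with PSMB8 at 23.23, PSMB9 at 8.488 and PSMB10 at 5.449.

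PSMA2, an alpha ring subunit, was lowest at 0.694 CPM per kb, although an alpha ring holds each of its subunits in equal number. PSMA1, PSMA2, PSMA6, PSMB10 and PSMD9 were the 5 lowest members, and they were also the 5 members of which more than 10% of the exon bases are shared with another annotated gene on the same strand, between 14.13% for PSMA6 and 39.36% for PSMB10. Reads that fall on shared bases can be left uncounted, so these 5 levels are uncertain, and the part of this in their low counts was not tested. On the opposite strand, 76.15% of the PSMC1 exon bases are shared with NRDE2 and 31.17% of those of PSMD7 with another gene. The strand setting of the counting is not given in the sources used here, so these levels are also uncertain.

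**Figure D1:**
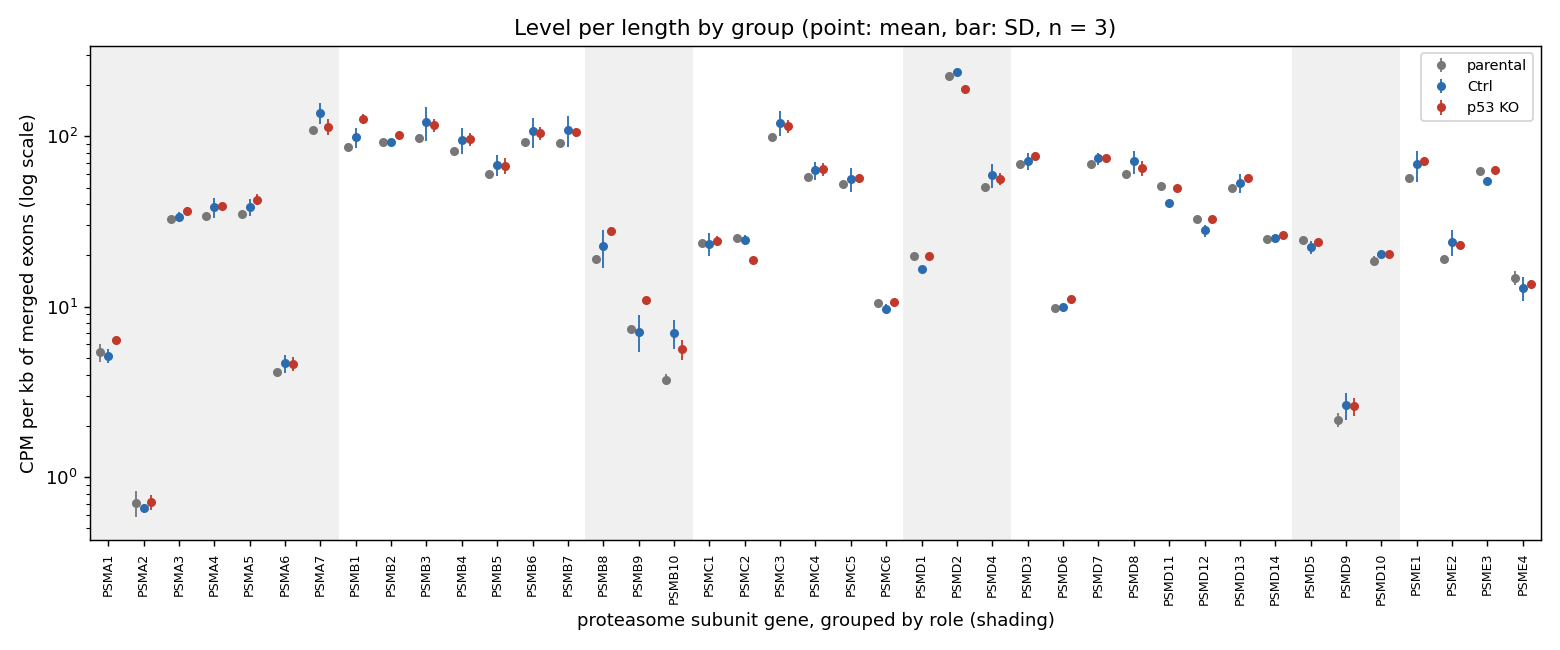
Level of each tested subunit gene as CPM per kb of merged exons, on a log axis, for the parental, Ctrl and p53 KO groups (point, mean; bar, SD, n = 3; shading, subcomplex). PSMD2 was highest and PSMA2 lowest, and the immunoproteasome genes lay below the constitutive beta ring.

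The first comparison asked how subunit expression differed between p53 KO and parental cells. PSMB8, PSMB9 and PSMB10, the catalytic subunits of the immunoproteasome, were all higher in p53 KO cells, by about the same extent, and PSMB1, a non-catalytic subunit of the beta ring, was also higher. PSMC2, an ATPase of the 19S base, and PSMD2 were lower. Called higher were thus 4 of 41 members (9.76%), where 9.77% of all tested genes were called higher, and called lower were 2 (4.88%), against a background of 8.36%. Among genes with enough counts to be tested, the members' share of higher calls was at the background and that of lower calls below it. Calls were made by edgeR's quasi-likelihood test at an adjusted p of at most 0.05. The fitted log2 fold changes lay above 0 in 35 of the 41 members and below 0 in 6, with a median of 0.157, compared with 0.00648 over all tested genes, and ran from -0.419 to 0.582.

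By role, the 3 immunoproteasome subunits tested were all called higher, with a median log2 fold change of 0.547. Of the 7 constitutive beta subunits, PSMB1 passed and the median was 0.206. Of the 7 alpha subunits tested, 0 passed edgeR's test and 1 passed in DESeq2, 3 had an unadjusted p under 0.05, and all 7 lay above 0 with a median of 0.167. Among the 6 ATPases, PSMC2 was called lower and the other 5 lay above 0. Among the 8 lid subunits, 0 passed in edgeR or DESeq2 and 2 had an unadjusted p under 0.05, with a median of 0.113. The 3 assembly chaperones and 4 activators likewise gave 0 calls by either tool, with 0 and 2 unadjusted p under 0.05.

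The second comparison asked the same against Ctrl cells, which share the handling of the p53 KO line. Higher in p53 KO cells were 7 of 41 members (17.1%), namely PSMB9, PSMB1, PSMA1, PSMD11, PSMD1, PSMD12 and PSME3, where 15% of all tested genes were called higher. PSMC2 and PSMD2 were lower, which made 2 members (4.88%) against 14.2% of all tested genes. The median log2 fold change of the members was 0.0577, with 26 above 0 and 15 below, and that of all tested genes was 0.006031. By role, the median was -0.014 for the constitutive beta subunits and 0.107 for the alpha subunits. For the 3 immunoproteasome subunits it was 0.306, and of these only PSMB9 was called. Without Ctrl replicate 3 the members' median was -0.0253, on the other side of 0. PSMD12 lay outside the rule for named genes and was named after its values were seen.

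In the third comparison, Ctrl against parental cells, PSMB10 was higher, and PSMD1 and PSMD11 were lower. That is 1 member higher (2.44%), where 10.6% of all tested genes were, and 2 lower (4.88%), where 9.69% were. The median log2 fold change was 0.113, with 29 members above 0 and 12 below, and that of all tested genes was 0.002948. All 7 constitutive beta subunits lay above 0, with a median of 0.207, close to the 0.206 of p53 KO against parental cells. The medians of the alpha and immunoproteasome subunits were 0.133 and 0.241. Each pair of comparisons shares 1 group of libraries, so the counts are not independent.

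Against both controls, calls in 1 direction were made for PSMB1 and PSMB9, higher (4.88% of members, against 6.46% of all tested genes), and PSMC2 and PSMD2, lower (4.88%, against 5.25%). With a log2 fold change past 1.5 required as well, 0 members were called in any comparison by edgeR or DESeq2, where 1.95% of all tested genes were called against parental, 3.29% against Ctrl and 1.94% between Ctrl and parental cells. In edgeR, 14, 10 and 10 members had an unadjusted p under 0.05 in these comparisons. The share of all tested genes under this level was not computed, here or beside the other counts by unadjusted p. No excess of members can therefore be read from them. The largest subunit change was that of PSMB10 between Ctrl and parental cells, at 0.90.

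**Figure D2:**
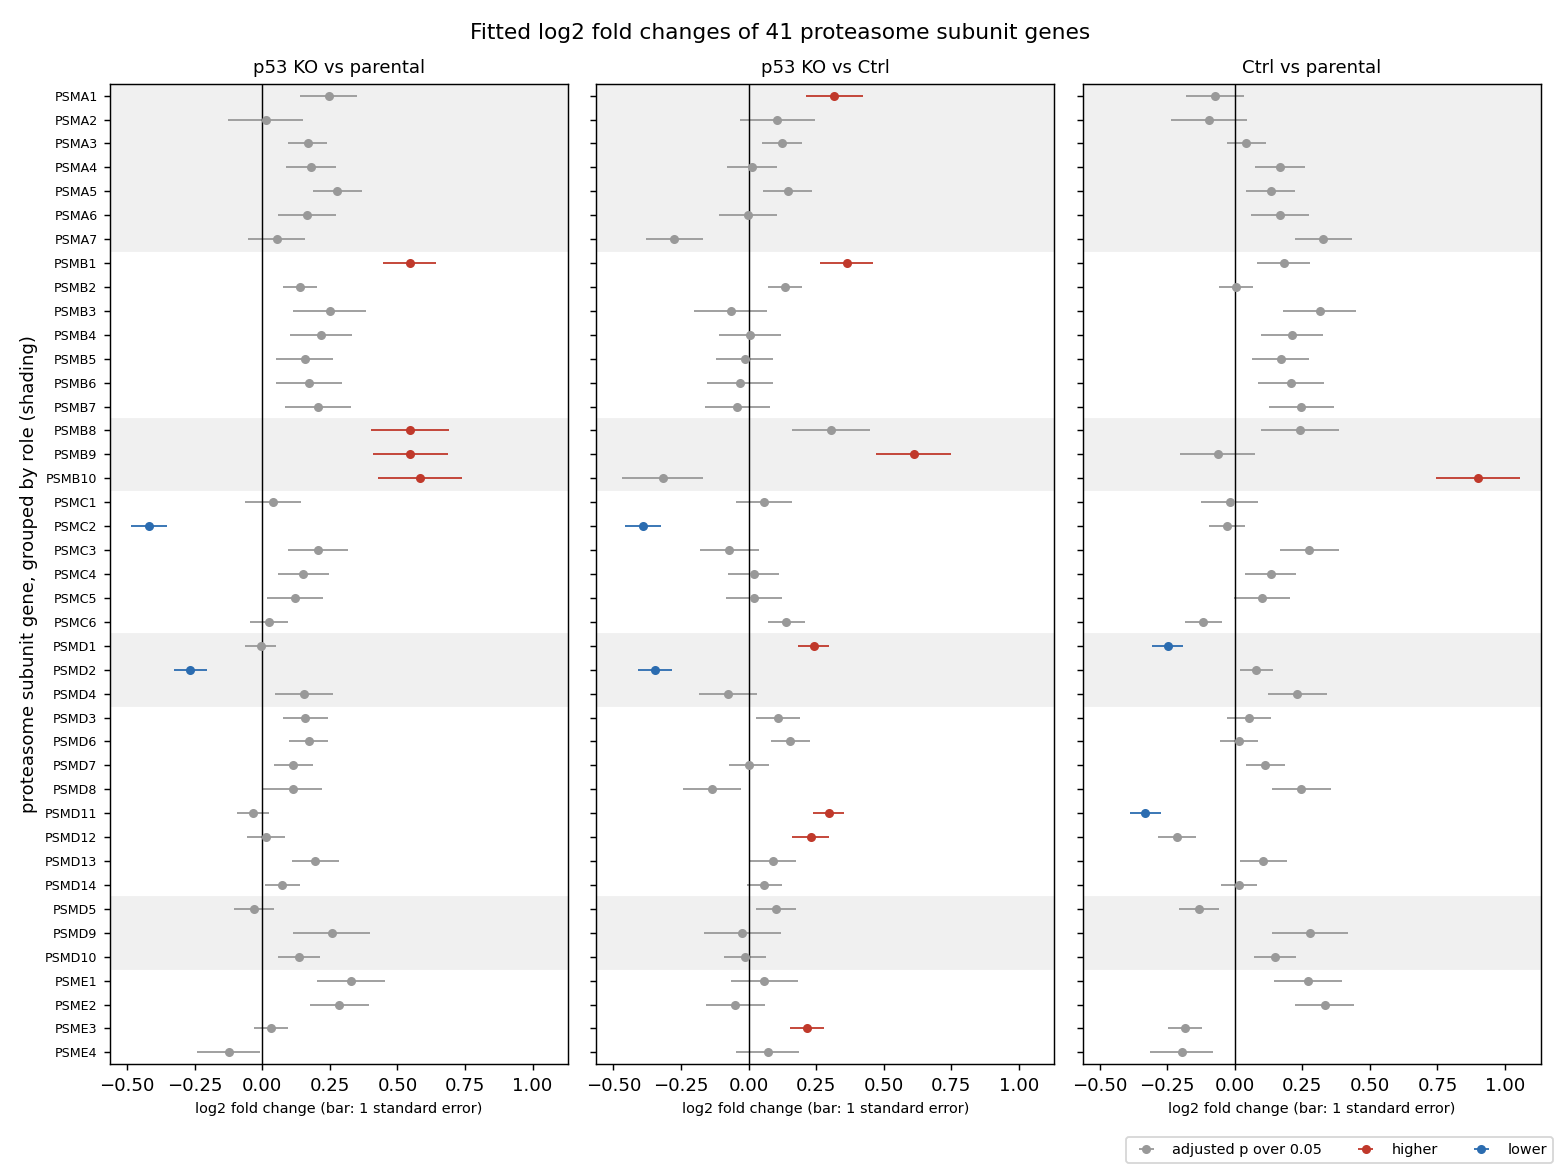
Fitted log2 fold change of the 41 tested subunit genes in each comparison, with bars of 1 standard error, red for called higher, blue for called lower and grey for an adjusted p over 0.05. Against parental cells 35 of 41 points lie right of 0, and PSMC2 and PSMD2 lie left of 0 against both controls.

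The number of members called rested on single libraries. Ctrl replicate 1 held the highest CPM of the 9 libraries for 22 of 41 members and p53 KO replicate 3 for 11. Relative to the parental mean, the median log2 ratio of the members was 0.299 in Ctrl replicate 1, but 0.0467 and -0.0223 in Ctrl replicates 2 and 3, and it was 0.106, 0.0973 and 0.234 in p53 KO replicates 1, 2 and 3. These libraries were also those in which genes with short merged exons lay highest and those with long ones lowest relative to the group mean. Without Ctrl replicate 1, 17 members (41.5%) were called higher in p53 KO than in parental cells, where 17.2% of all tested genes were. A fit of the p53 KO and parental libraries alone gave 16 (39.0%), where 17.6% of the tested genes were. Against Ctrl cells the number rose to 13 (31.7%, with 17.7% of all genes), and against both controls to 8 (19.5%, with 10.3%), which were PSMA1, PSMA5, PSMB1, PSMB8, PSMB9, PSMD3, PSMD13 and PSME1, the list being named after its values were seen. Without p53 KO replicate 3 in addition, 9 members were called higher against parental (22%, with 15.7% of all genes), 12 against Ctrl (29.3%, with 19.2%) and 5 against both (12.2%, with 10.2%, near the background).

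Leaving out other libraries also moved the counts. Against parental cells, 1 member (2.44%), PSMB1, was called higher without any single parental library, where 5.93 to 6.27% of all genes were, or without p53 KO replicate 3, where 6.78% were. Without p53 KO replicate 1 there were 2 (4.88%, with 6.59% of all genes). Without p53 KO replicate 1, 2 or 3, the members higher than in Ctrl cells numbered 4, 4 and 3 (9.76, 9.76 and 7.32%), where 11.4, 11.1 and 13.2% of all genes were. Those higher than in both controls numbered 1 (2.44%) without each parental library, where 4.63 to 4.69% of all genes were, and 0 in edgeR without p53 KO replicate 1 or 3, where 4.73 and 4.98% of all genes were, with 2 members at an unadjusted p under 0.05 in each case. DESeq2, run with all libraries, called 2. Without Ctrl replicate 3, 13 members (31.7%, with 15.5% of all genes) were higher and 4 (9.76%, with 14.1%) lower in Ctrl than in parental cells. In p53 KO cells, 4 were then lower than in Ctrl cells (9.76%, with 15.3%) and 6 higher than in parental cells (14.6%, with 10.8%). Without parental replicate 1, p53 KO replicate 1 or p53 KO replicate 2, only PSMC2 was lower than in parental cells (2.44%, with 4.69 to 5.26% of all genes), and without parental replicate 1 only PSMD11 was lower in Ctrl than in parental cells (2.44%, with 4.99%). Without p53 KO replicate 3, 2 members were higher in Ctrl than in parental cells (4.88%, with 9.98%).

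**Figure D3:**
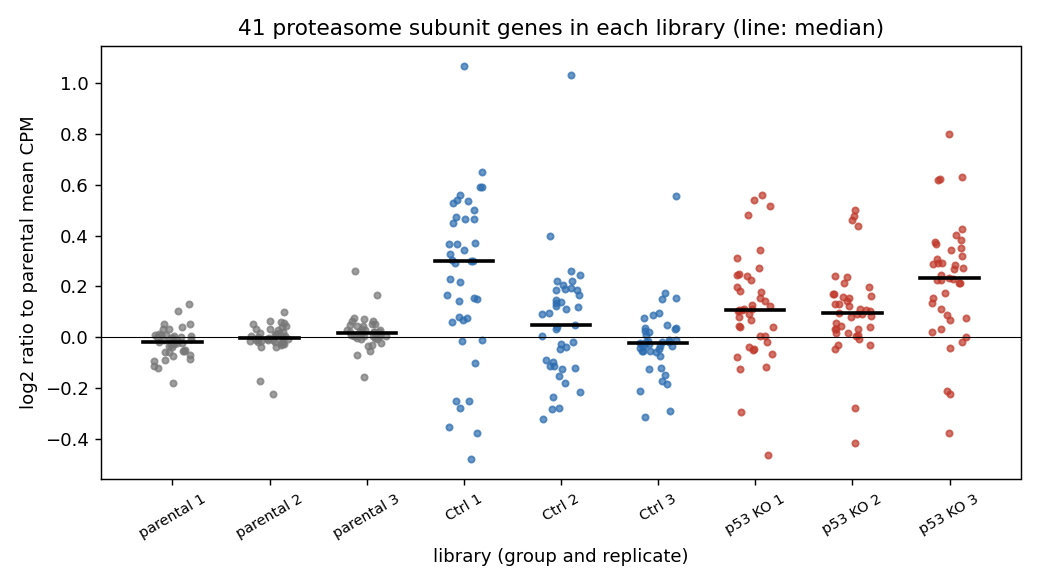
Log2 ratio of each of the 41 subunit genes to its mean CPM over the parental libraries, per library, with the median as a line. The median lies at 0.299 in Ctrl replicate 1 and 0.234 in p53 KO replicate 3, and between -0.0223 and 0.106 in the others.

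PSMB9 encodes the immunoproteasome subunit that replaces PSMB6 (ENSG00000240065, chr6:32844136-32859851, plus strand, GENCODE 44). It was measured at 24.3, 24.5 and 25.7 CPM in the parental libraries, 30.5, 21.1 and 19.9 CPM in the Ctrl libraries and 35.6, 35.1 and 38.3 CPM in the p53 KO libraries. All p53 KO libraries lay above all 6 control libraries, and Ctrl replicate 1 lay nearest to them. It was higher than in parental cells by a fitted log2 fold change of 0.55 ± 0.14 (SE), and than in Ctrl cells by 0.61 ± 0.14, with adjusted p-values of 0.0194 and 0.00669 in edgeR's test. The call against Ctrl was kept in all 18 alternatives. The call against parental was lost without parental replicate 1, 2 or 3 (adjusted p = 0.0775, 0.0692 and 0.0567) and without p53 KO replicate 1 or 3 (0.0541 and 0.0654), with the fold change between 0.48 and 0.57 throughout.

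PSMB8 replaces PSMB5 in the immunoproteasome (ENSG00000204264, chr6:32840717-32844679, minus strand). Its values were 63.9, 68.9 and 66.9 CPM in parental, 100.4, 74.6 and 61.3 CPM in Ctrl and 96.8, 92.6 and 102.3 CPM in p53 KO libraries. The p53 KO libraries stood apart from the parental ones, while Ctrl replicate 1 reached the p53 KO range and Ctrl replicate 3 the parental one. Relative to parental cells the log2 fold change was 0.55 ± 0.14 (adjusted p = 0.0231, edgeR), and relative to Ctrl cells it was 0.31 ± 0.14, which did not pass (adjusted p = 0.136). The call against parental was lost without any single library of these 2 groups, at adjusted p-values from 0.0508 to 0.0926. Of the PSMB8 exon bases, 17.3% are shared on the opposite strand with PSMB8-AS1 and PSMB9. The antisense gene PSMB8-AS1 lay at 4.25 to 5.08, 3.89 to 5.35 and 7.15 to 7.21 CPM in parental, Ctrl and p53 KO libraries, and was higher in p53 KO cells by a log2 fold change of 0.66 and 0.61 against parental and Ctrl (adjusted p = 0.00536 and 0.00475, edgeR). Of the PSMB9 exon bases, 5.21% are shared with PSMB8-AS1 on the same strand and 4.16% with PSMB8 on the opposite strand. How far PSMB8-AS1 adds to the PSMB8 counts, or the shared bases alter the PSMB9 counts, was not tested.

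PSMB10, which replaces PSMB7, is encoded on chromosome 16 (ENSG00000205220, chr16:67934506-67936864, minus strand). It was measured at 5.59, 6.50 and 6.14 CPM in parental, 12.8, 12.4 and 8.92 CPM in Ctrl and 8.49, 8.37 and 10.6 CPM in p53 KO libraries. Both lines that had been made with a CRISPR construct lay above the parental cells without overlap, and they overlapped each other. The log2 fold change was 0.58 ± 0.16 in p53 KO cells and 0.90 ± 0.15 in Ctrl cells, both against parental (adjusted p = 0.0251 and 0.00261, edgeR), and -0.32 ± 0.15 between p53 KO and Ctrl cells, which did not pass (adjusted p = 0.135). The p53 KO call was lost without parental replicate 1, 2 or 3 or p53 KO replicate 3 (adjusted p = 0.104, 0.0527, 0.0735 and 0.0918), and the Ctrl call was kept in all alternatives. PSMB10 was thus unlike PSMB9, whose log2 fold change between Ctrl and parental cells was -0.06 ± 0.14 (adjusted p = 0.757). CTC-479C5.12, the gene that shares 39.36% of the PSMB10 exon bases, held 26 to 62 counts.

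Of the constitutive catalytic subunits, PSMB5, with chymotrypsin-like activity, lay at 91.4 to 95.0 CPM in parental, 91.7 to 120.5 in Ctrl and 95.2 to 116.2 in p53 KO libraries. PSMB6, with caspase-like activity, lay at 127 to 139, 132 to 189 and 143 to 165 CPM in the same order, and PSMB7, with trypsin-like activity, at 158 to 172, 161 to 238 and 177 to 200. The log2 fold changes against parental cells were 0.16 (95% interval -0.08 to 0.39), 0.17 (-0.10 to 0.44) and 0.21 (-0.06 to 0.47) for PSMB5, PSMB6 and PSMB7, and none passed (adjusted p = 0.341, 0.36 and 0.275, edgeR). Against Ctrl cells they were -0.01 (-0.25 to 0.22), -0.03 (-0.30 to 0.24) and -0.04 (-0.31 to 0.23). An increase as large as the fitted one of PSMB9 lay outside all of these intervals.

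Set against the constitutive subunit that each replaces, the immunoproteasome transcripts were the minority in every library, per length and in CPM. Per length, PSMB8 came to 31.1, 33.0 and 31.3 per 100 of PSMB5 in parental, 37.1, 32.4 and 29.7 in Ctrl and 43.0, 43.3 and 39.2 in p53 KO libraries. The p53 KO libraries lay above all 6 control libraries in this ratio, including Ctrl replicate 1, which had matched them in the PSMB8 level. PSMB9 came to 7.83, 7.63 and 8.77 per 100 of PSMB6 in parental, 7.01, 6.44 and 6.56 in Ctrl and 10.7, 10.7 and 10.0 in p53 KO libraries, again above all control libraries in the latter. PSMB10 came to 3.90, 4.42 and 3.92 per 100 of PSMB7 in parental, 5.89, 8.50 and 5.31 in Ctrl and 5.27, 4.84 and 5.82 in p53 KO libraries, where the p53 KO and Ctrl ranges overlapped. The size of these ratios depends on the merged exon lengths, such as 3480 bases for PSMB8 and 1549 for PSMB5. In CPM, PSMB8 was close to PSMB5 in the p53 KO libraries, at 96.8, 92.6 and 102.3 against 100.2, 95.2 and 116.2. The PSMB10 ratio also rests on a level that its shared exon bases make uncertain. The ratios are given as a description, without a test.

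**Figure D4:**
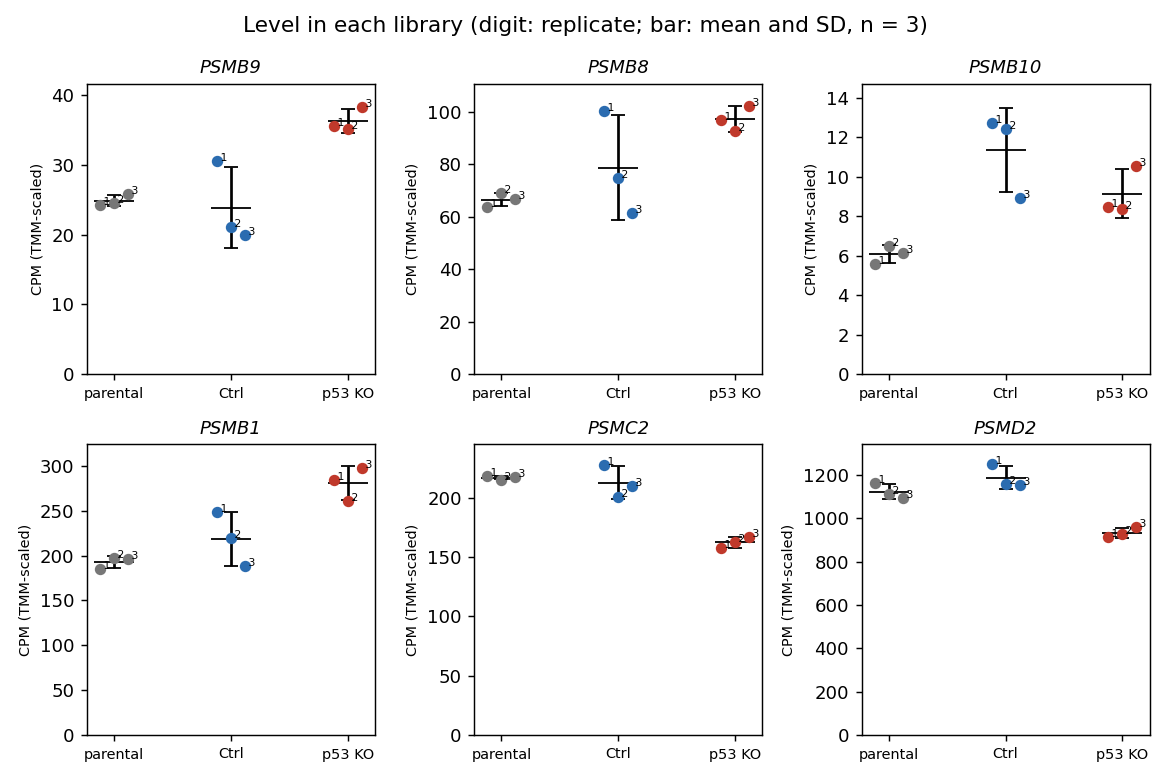
CPM of 6 subunit genes in each library (points, with the replicate number), with the mean and SD of the 3 libraries per group. The p53 KO points lie above all control points for PSMB9 and PSMB1 and below all of them for PSMC2 and PSMD2, whereas for PSMB8 Ctrl replicate 1 lies among them and for PSMB10 the Ctrl and p53 KO points overlap.

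PSMB1, a non-catalytic subunit of the beta ring (ENSG00000008018, chr6:170535120-170553307, minus strand), was measured at 185, 197 and 196 CPM in parental, 249, 219 and 188 CPM in Ctrl and 284, 261 and 298 CPM in p53 KO libraries. The p53 KO libraries lay above all control libraries, with Ctrl replicate 1 close to p53 KO replicate 2, and the control groups overlapped. PSMB1 rose by 0.54 ± 0.10 on the log2 scale from parental and by 0.36 ± 0.10 from Ctrl cells (adjusted p = 0.00295 and 0.0162, edgeR). The first call was kept in all alternatives, and the second was lost without p53 KO replicate 1 or 3 (adjusted p = 0.0552 and 0.0537) and when only these groups were fitted (0.0512).

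PSMC2, an ATPase that unfolds substrates in the 19S base (ENSG00000161057, chr7:103328570-103370346, plus strand), was measured at 218, 216 and 218 CPM in parental, 228, 201 and 211 CPM in Ctrl and 158, 163 and 167 CPM in p53 KO libraries. The p53 KO libraries lay below all control libraries. Its log2 fold change was -0.42 ± 0.07 relative to parental and -0.39 ± 0.07 relative to Ctrl cells (adjusted p = 0.00144 and 0.00114, edgeR), and both calls were kept in all 18 alternatives. None of the other 5 ATPases, PSMC1, PSMC3, PSMC4, PSMC5 and PSMC6, passed against either control.

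PSMD2, which binds ubiquitin-like domains and holds the base together (ENSG00000175166, chr3:184299198-184309050, plus strand), was measured at 1162, 1110 and 1095 CPM in parental, 1248, 1159 and 1152 CPM in Ctrl and 915, 925 and 960 CPM in p53 KO libraries. These p53 KO values were also below all others. It had log2 fold changes of -0.27 ± 0.06 relative to parental and -0.35 ± 0.06 relative to Ctrl cells (adjusted p = 0.0122 and 0.00153, edgeR). The call against Ctrl was kept in all alternatives, and that against parental was lost without parental replicate 1, p53 KO replicate 1 or p53 KO replicate 2 (adjusted p = 0.0611, 0.0578 and 0.0543).

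The genes beside these members were examined, because whole chromosome regions can differ in dose between sublines. Within 10 Mb of PSMB1 lay 23 other tested genes, with median log2 fold changes of 0.38 against parental and 0.60 against Ctrl cells, and 19 and 21 of them were above 0. Within 10 Mb of PSMD2 lay 82, with medians of -0.32 and -0.51, and 68 and 67 were below 0. PSMB1 and PSMD2 thus moved with their neighbours. The 134 neighbours of PSMC2 had medians of 0.17 and 0.13, opposite in sign to PSMC2, and the 271 neighbours of PSMB9 had medians of 0.06 and -0.03. Of these 271, TAP1, PSMB8-AS1 and PSMB8, beside PSMB9, had log2 fold changes of 0.60, 0.66 and 0.55 against parental cells. Against Ctrl cells they had 0.64, 0.61 and 0.31, of which that of PSMB8 did not pass. TAP2, also among the 271, had -0.05 and 0.02. DNA copy number was not measured, and its part in these results was not tested.

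**Figure D5:**
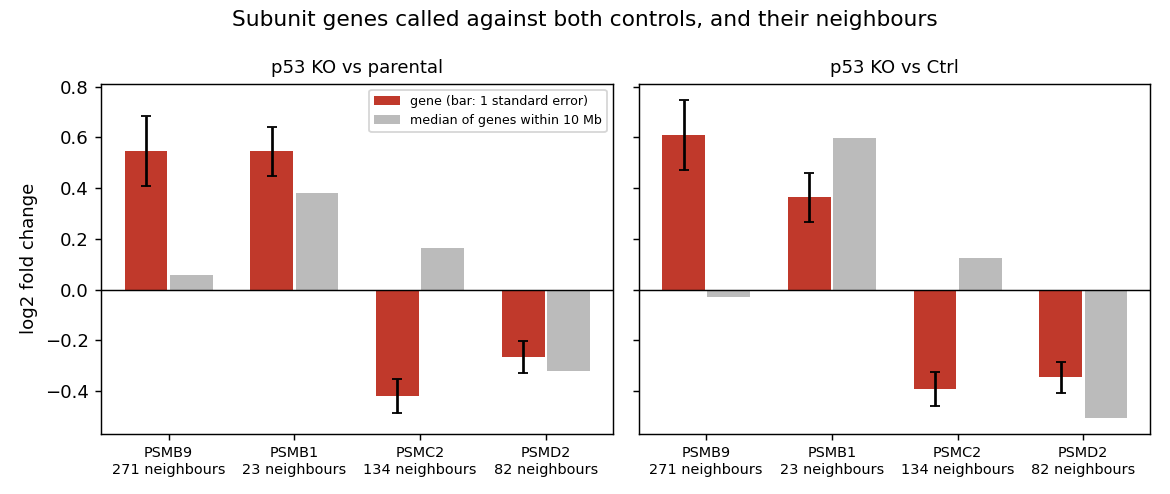
Log2 fold change of the 4 subunit genes called against both controls (red, with 1 standard error) and the median over the other tested genes within 10 Mb (grey), against parental and against Ctrl cells. PSMB1 and PSMD2 have the sign of their neighbours' median, PSMC2 has the opposite sign, and the median of the PSMB9 neighbours lies near 0.

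A further set of members was lower in Ctrl cells and alike in parental and p53 KO cells. PSMD11, a lid subunit that braces the particle, was measured at 359, 359 and 362 CPM in parental, 277, 288 and 294 CPM in Ctrl and 344, 361 and 350 CPM in p53 KO libraries. PSMD1, a large subunit of the base, lay at 315, 314 and 313 CPM in parental, 264, 258 and 271 CPM in Ctrl and 306, 318 and 314 CPM in p53 KO libraries. For both, every Ctrl library was below every other library. The log2 fold change between Ctrl and parental cells was -0.33 ± 0.06 for PSMD11 and -0.25 ± 0.06 for PSMD1 (adjusted p = 0.00305 and 0.0128, edgeR), and between p53 KO and Ctrl cells it was 0.30 ± 0.06 and 0.24 ± 0.06 (adjusted p = 0.00278 and 0.0082). Between p53 KO and parental cells it was -0.03 and -0.01 (adjusted p = 0.725 and 0.954). Without parental replicate 1, the PSMD1 call in Ctrl cells was lost (adjusted p = 0.0528).

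PSMD1 has 15795 merged exon bases, the most of all members. These bases join all annotated transcripts, so the expressed PSMD1 transcript can be shorter, and whether a correction by this length suits it was not tested. With the trend of each library with merged exon length removed, the PSMD1 log2 fold change between Ctrl and parental cells was -0.04 (adjusted p = 0.755, edgeR). That between p53 KO and Ctrl cells was 0.15 (adjusted p = 0.258). That of PSMD11 was called in both comparisons with the trend removed. Between Ctrl and parental cells, the 15 members with 5 kb or more of exon had a median log2 fold change of -0.0283, and the 26 shorter ones 0.176. Between p53 KO and Ctrl cells the medians were 0.107 and 0.00365, and between p53 KO and parental cells 0.0333 and 0.171.

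The lid subunit PSMD12 lay at 173 to 174 CPM in parental, 136 to 157 in Ctrl and 174 to 176 in p53 KO libraries, with a log2 fold change of 0.23 ± 0.07 between p53 KO and Ctrl cells (adjusted p = 0.0297, edgeR). PSMA1, an alpha ring subunit, was measured at 14.6, 16.4 and 18.5 CPM in parental, 17.4, 15.1 and 14.5 CPM in Ctrl and 19.5, 18.9 and 20.1 CPM in p53 KO libraries, and its log2 fold change against Ctrl was 0.32 ± 0.11 (adjusted p = 0.0439). Both calls were lost in 9 of 18 alternatives, among them the fits without p53 KO replicate 1, 2 or 3 (adjusted p = 0.0753, 0.086 and 0.0709 for PSMD12, and 0.109, 0.0868 and 0.099 for PSMA1), without parental replicate 2 (0.059 and 0.0684) and, for PSMA1, without Ctrl replicate 2 or 3 (0.125 and 0.12). PSMA1 lay apart from Ctrl in every p53 KO library, by as little as 18.9 against 17.4 CPM.

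The activators showed no common direction. PSME1 and PSME2 form the interferon-inducible 11S cap. PSME1 lay at 95.4, 103 and 103 CPM in parental, 148, 117 and 98.4 CPM in Ctrl and 127, 118 and 133 CPM in p53 KO libraries, and PSME2 at 67.9, 70.9 and 65.5, at 103, 79.3 and 75.5 and at 80.6, 80.4 and 87.9 CPM. Against parental cells their log2 fold changes were 0.33 ± 0.13 and 0.28 ± 0.11 in p53 KO cells (adjusted p = 0.0965 and 0.0983, edgeR), and 0.27 and 0.33 in Ctrl cells (adjusted p = 0.141 and 0.0527), and none passed. Without Ctrl replicate 1 both were called higher in p53 KO than in parental cells. PSME3, the nuclear activator, was lower in Ctrl libraries, at 269 to 294 CPM, than in p53 KO libraries, at 316 to 340 CPM, with a log2 fold change of 0.22 ± 0.06 between p53 KO and Ctrl cells (adjusted p = 0.0229). This call was lost in 7 of 18 alternatives. Among them were the fits without p53 KO replicate 2 or 3 or Ctrl replicate 2 (adjusted p = 0.07, 0.0765 and 0.0621), of only these groups (0.0782), with no filter beyond 1 count (0.0562) and with the length trend removed (0.0852). PSME4, an activator linked to histone turnover, had a log2 fold change of -0.12 relative to parental cells, which did not pass (adjusted p = 0.502).

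Summed over subunits, the 41 members took 7403, 7380 and 7456 CPM in parental, 8507, 7479 and 7308 CPM in Ctrl and 7600, 7619 and 8193 CPM in p53 KO libraries. The Ctrl group spanned the others. The 3 immunoproteasome subunits summed to 97.5 ± 3.29 CPM (SD, n = 3) in parental, 114 ± 27.3 CPM in Ctrl and 143 ± 7.70 CPM in p53 KO cells, with 143.7 CPM in Ctrl replicate 1. The 3 non-ATPase base subunits, led by PSMD2, summed to 1589 ± 36.5, 1630 ± 80.3 and 1416 ± 40.5 CPM. The 6 ATPases summed to 1037 ± 17.2, 1103 ± 136 and 1058 ± 62.0 CPM, within the spread of the groups.

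Of 32 proteasome genes outside the rule, which included assembly factors, shuttle receptors, deubiquitinases and ubiquitin-activating enzymes, 4 were higher and 2 lower in p53 KO than in parental cells, 4 higher and 2 lower than in Ctrl cells, and 2 higher and 3 lower in Ctrl than in parental cells. Over all tested genes the shares were 9.77 and 8.36%, 15 and 14.2%, and 10.6 and 9.69%. The medians of their log2 fold changes were 0.0393, 0.0253 and 0.0604, beside 0.00648, 0.006031 and 0.002948 over all tested genes. Against both controls, 2 of the 32 were higher, where 6.46% of all tested genes were, and 1 was lower, where 5.25% were. Called against both controls were ZFAND2A, a heat-inducible proteasome-associated factor, higher by 0.39 and 0.35, UBA1, the main ubiquitin-activating enzyme, higher by 0.27 and 1.00, and the ubiquitin ligase gene UBE3C, lower with log2 fold changes of -0.38 and -0.48 against parental and Ctrl (adjusted p = 0.00593 and 0.00657, 0.0242 and 4.07e-06, and 0.00751 and 0.000935, edgeR). All of them had the sign of the genes within 10 Mb. The medians against parental and Ctrl were 0.22 and 0.26 beside ZFAND2A, 0.18 and 0.82 beside UBA1, and -0.23 and -0.49 beside UBE3C. UBA1 was also lower in Ctrl than in parental cells, at -0.72 (adjusted p = 9.88e-05), with a median of -0.62 beside it. POMP, the chaperone that matures the beta ring, was higher than in parental cells (log2 fold change 0.32, adjusted p = 0.0285) and did not pass against Ctrl cells (0.20, adjusted p = 0.119). The transcription factor genes NFE2L1 and NFE2L2, of which the first controls subunit genes when proteasomes are impaired, had log2 fold changes of 0.06 and 0.05 against parental and -0.02 and -0.05 against Ctrl cells, and neither passed.

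Of 18 genes of interferon gamma signalling and class I antigen processing, 5 were called higher in p53 KO than in parental cells, 7 were higher and 1 lower than in Ctrl cells, and 2 were higher and 2 lower in Ctrl than in parental cells. Over all tested genes, 9.77% were higher than in parental cells, 15% higher and 14.2% lower than in Ctrl cells, and 10.6% higher and 9.69% lower in Ctrl than in parental cells. The medians of the list's log2 fold changes were 0.0414, 0.234 and -0.0974, beside 0.00648, 0.006031 and 0.002948 over all tested genes. Called higher against both controls were 4, where 6.46% of all tested genes were, namely TAP1, B2M, NLRC5 and IFNGR1. TAP1, the peptide transporter gene next to PSMB9, lay at 61.6, 62.5 and 63.5 CPM in parental, 68.2, 59.9 and 53.9 CPM in Ctrl and 92.3, 89.3 and 102.9 CPM in p53 KO libraries. Its log2 fold changes of 0.60 ± 0.09 and 0.64 ± 0.09 against parental and Ctrl (adjusted p = 0.0013 and 0.000405, edgeR) were close to those of PSMB9.

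B2M, the light chain of class I molecules, had log2 fold changes of 0.47 and 0.27 against parental and Ctrl, NLRC5, a transactivator of class I genes, 0.52 and 1.24, and the receptor gene IFNGR1 0.55 and 0.41 (adjusted p between 3.27e-06 and 0.0329, edgeR). IFNGR1 moved with its region, as its 62 neighbours within 10 Mb had medians of 0.36 and 0.45, with 53 and 55 above 0. The medians beside TAP1, B2M and NLRC5 lay between -0.03 and 0.06. NLRC5 was also lower in Ctrl than in parental cells, at a log2 fold change of -0.72 (adjusted p = 0.000354). IRF1, a transcription factor induced by interferon, resembled PSMB10, with log2 fold changes against parental of 0.38 in p53 KO and 0.44 in Ctrl cells (adjusted p = 0.0317 and 0.0154) and -0.07 between p53 KO and Ctrl cells (adjusted p = 0.68).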

How the data were processed

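Reads had been aligned to GRCh38 (STAR 2.5.1b) and assigned to Ensembl 85 genes (featureCounts), and the authors deposited the raw counts for 9 strand-specific poly(A) libraries. Each column was assigned to a library by its label, and none was left out. Counts were filtered with filterByExpr (minimum count 10) and scaled by TMM in R 4.3.3 with edgeR 4.0.16 and limma 3.58.1. All libraries entered 1 quasi-likelihood model with a mean for each group, and a gene was called at a Benjamini-Hochberg adjusted p of at most 0.05 over 14513 genes. Standard errors follow from the F statistic. The script was tested on simulated data without a length trend. Recovery was required only at a log2 fold change of 1, above the largest subunit change reported, 0.90. Depth limits cover counting error only.

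Named genes were the members called against both controls, the 3 largest called changes in each direction per comparison, the catalytic pairs, the activators, the highest and lowest by level, and members of the lists called against both controls with NFE2L1, NFE2L2, POMP, IRF1 and TAP1. Some genes that the rule also covers are not reported here. The members and lists were chosen with earlier results of these data known. Exon lengths came from GENCODE 44 and promoters from RefSeq (GRCh38.p14). Alternatives were DESeq2 1.42.0, its size factors, library totals, other filters, the replicate block, fits of 2 groups, and each library left out. Those with the length trend removed, and without both Ctrl replicate 1 and p53 KO replicate 3, were chosen after seeing the data. Figures were drawn with matplotlib 3.10.9.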

Additional observations from a re-analysis of the deposited data

Results flagged for a closer look

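PSMD11 and PSMD1 were lower in Ctrl than in parental cells, and their difference between p53 KO and parental cells did not pass. Their log2 fold changes between p53 KO and Ctrl cells were 0.30 and 0.24, and both were also called in the comparison of Ctrl with parental cells. The 2 sublines thus differed from each other by edgeR's test of p53 KO against Ctrl, and editing, founder cells and libraries cannot be told apart in this. With the length trend removed, PSMD1 was called in neither comparison (log2 fold changes of 0.15 between p53 KO and Ctrl and -0.04 between Ctrl and parental cells, adjusted p = 0.258 and 0.755), while PSMD11 was called in both. The length used was that of merged exons, and whether it suits the expressed PSMD1 transcript was not tested.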

How the results depend on the processing

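No called log2 fold change of a named member reversed under any alternative run, but the members' median log2 fold change between p53 KO and Ctrl cells, 0.0577, was -0.0253 without Ctrl replicate 3. The number of members called was within 1.5 times that reported with DESeq2's size factors in edgeR and when every library had to hold 10 counts of a gene. Members higher in Ctrl than in parental cells numbered 3 with DESeq2 (7.32%, with 12.2% of all genes), 3 with library totals alone (7.32%, with 11.8%), 5 with no filter beyond 1 count (12.2%, with 6.95%) and 2 with the length trend removed (4.88%, with 14.2%), in place of 1. Members lower in Ctrl cells numbered 4 with DESeq2 (9.76%, with 11.7%) and 1 with the length trend removed (2.44%, with 9.51%), in place of 2. Higher in p53 KO than in Ctrl cells were 3 when only these groups were fitted (7.32%, with 11.6%) and 4 with the length trend removed (9.76%, with 14.5%), in place of 7. With no filter beyond 1 count, where 27464 genes were tested, 6 members were higher than in parental cells (14.6%, with 6.41%). Then 6 were higher than in Ctrl cells (14.6%, with 9.34%) and 3 than in both (7.32%, with 3.86%), and 2 were lower than in both (4.88%, with 2.95%). With only the groups compared in a fit, 16 members were higher than in parental cells (39%, with 17.6%) and 1 was higher than in both controls (2.44%, with 7.49%). Without Ctrl replicate 1 and p53 KO replicate 3, 9 were higher than in parental cells, 12 than in Ctrl cells and 5 than in both, and 3 were higher (7.32%, with 14.2%) and 5 lower (12.2%, with 14.3%) in Ctrl than in parental cells. The cause of these shifts was not tested, and the fits of 2 groups or without some libraries also held fewer libraries.

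Leaving out 1 library at a time gave 1 to 17 members higher and 1 to 2 lower in p53 KO than in parental cells, 3 to 13 higher and 2 to 4 lower than in Ctrl cells, and 0 to 8 higher and 1 to 2 lower than in both. It gave 1 to 13 higher and 1 to 4 lower in Ctrl than in parental cells.

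Same-numbered libraries did not deviate together (correlations across genes from -0.348 to 0.0409), so no pairing by number was seen. The highest correlation, 0.395, was between Ctrl replicate 1 and p53 KO replicate 3. A pairing weaker than such shared deviations would not show, so this cannot settle whether the samples are paired. With a replicate block, 4 members were higher in p53 KO than in Ctrl cells (9.76%, with 12.2%) and 1 was lower in Ctrl than in parental cells (2.44%, with 5.91%). The block ended the calls of PSMB10 against parental (adjusted p = 0.064, edgeR), of PSMA1, PSMD12 and PSME3 against Ctrl (0.096, 0.0697 and 0.0575) and of PSMD1 between Ctrl and parental cells (0.055), and no other call of a named member. Depth limits PSMB10 and PSMA2, the members with the lowest CPM.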
